A study of Caenorhabditis elegans with 11 samples.

Results

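Loss of the germline Argonaute HRDE-1 was examined in worms that already lacked the histone methyltransferases MET-2 and SET-25. The comparison rests on 4 of the 11 samples of the series, or 4 of its 8 RNA polymerase II (Pol II) libraries. They were chosen by genotype: every Pol II library whose label carries both met-2(n4256) and set-25(n5021), alleles that all 4 share. In 2 of them hrde-1 is intact, and the other 2 carry hrde-1(tm1200). Each of these groups holds 1 library with SET-32 intact and 1 with set-32(red11). The libraries thus form 2 pairs that differ by hrde-1, called here the SET-32-intact pair and the set-32-lost pair, and no library is shared between them. Within a pair, "with HRDE-1" stands for the met-2 set-25 library in which hrde-1 is intact and "without HRDE-1" for the one that carries hrde-1(tm1200). All 4 come from young adult hermaphrodites of Caenorhabditis elegans fed on OP50 bacteria, 1 library per genotype. The other 4 Pol II libraries, N2 (the wild type), hrde-1(tm1200), set-32(red11) and the combination of set-32(red11) with hrde-1(tm1200), here set-32 hrde-1, have MET-2 and SET-25 intact and serve here as the comparison background and in the estimate of the spread.

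HRDE-1 binds small RNAs in germline nuclei and, guided by them to nascent transcripts, represses transcription of its targets over generations. MET-2 and SET-25 methylate lysine 9 of histone H3, a mark of silent chromatin, and targets of nuclear RNAi carry that mark. SET-32 belongs to the same SET domain class and acts with nuclear RNAi. The question put to these libraries is whether HRDE-1 still keeps Pol II away from its targets once MET-2 and SET-25 are gone. Each library was made from whole animals, so Pol II on more cells and more Pol II per cell cannot be told apart, and germline and soma are mixed.

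Values are RPKM, the authors' read density, in 1 kb bins, which is close to a share of the library's reads. Differences were taken between values of log2(RPKM + 1), and low bins therefore change by less than their RPKM ratio. Estimated depth in the SET-32-intact pair was 3.005 M reads with HRDE-1 and 6.6 M without it, and in the set-32-lost pair 6.06 M and 3.07 M, so a bin at 10 RPKM carried a counting error of 12.3 to 18.2%. The libraries differed in how evenly their reads were spread: the 90th percentile over bins divided by the 10th was 7.63 with HRDE-1 and 12.2 without it in the SET-32-intact pair, and 3.72 and 4.31 in the set-32-lost pair. Positions are those of the deposited table, and no source used here names its build. No gene was assigned to a position, and the 4 mutated genes were not checked in the libraries for that reason.

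Without HRDE-1, Pol II rose over discrete stretches of the autosomes of met-2 set-25 mutants. Of 100238 bins tested, 429 rose (0.428%) and 79 fell (0.0788%) past an adjusted p of 0.05 (limma, Benjamini-Hochberg). The change was at least 2-fold in all 429 higher bins, at least 4-fold in 165 and at least 8-fold in 46. In the higher bins the median level went from 6.66 to 35.6 RPKM on HRDE-1 loss in the SET-32-intact pair and from 8.82 to 29.4 RPKM in the set-32-lost pair. All bins together moved by a median of -0.11 on the log2 scale. With moderation that ignored the dependence of the spread on the level, 98 bins rose and 0 fell. Fitted on the 4 met-2 set-25 libraries alone, 687 rose and 382 fell.

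The higher bins formed 147 regions, neighbouring bins being merged when at most 1 bin lay between them. Of these, 68 were single bins, 23 were at least 5 kb long and 9 at least 10 kb. In 145 of the 147 regions both libraries without HRDE-1 lay above both libraries with it, against 9.42% of all bins (0.428% were called higher). The regions were called on the same 4 libraries, which nearly forces this count. Region changes ran from 1.06 to 3.93 on the log2 scale, with a median of 1.58. The rise was larger in the SET-32-intact pair in 120 of the 147 regions. Over the higher bins the median difference was 2.05 in that pair and 1.53 in the set-32-lost pair. With MET-2 and SET-25 intact the order was the other way, at 1.78 with SET-32 intact and 2.41 with set-32 lost. The set-32-lost pair of met-2 set-25 libraries was also the more even, and the parts of set-32 and of evenness in this count were not tested. Not all regions are separate measurements: 24 lay within 0.3 (log2) of another higher region in all 8 libraries, in 8 groups, and 41.4% of their values between 10 and 60 RPKM came to whole reads. Reads may be shared within these groups, and counted once per group they leave 131 regions.

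The largest rise lay on chromosome IV from 913001 to 922000, a stretch of 9 kb with 7 bins marked GRTS. GRTS is a yes-or-no mark that the authors set per bin; in the field the term has been used for regions under transcriptional silencing by germline nuclear RNAi. Pol II there was 5.12 RPKM with HRDE-1 and 82.5 RPKM without it in the SET-32-intact pair, and 7.78 and 150.4 RPKM in the set-32-lost pair. Both hrde-1 mutants stood far above both other libraries (log2 change 3.93 ± 0.44 SE, smallest adjusted p of its bins 1.74e-05 by limma). With MET-2 and SET-25 intact the same stretch read 14.1 RPKM in hrde-1 and 110.1 RPKM in set-32 hrde-1, against 4.29 RPKM in N2 and 3.51 RPKM in set-32.

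A single bin of chromosome II, 10123001 to 10124000, was second by size and carried neither mark of silencing. It read 3.27 and 23.7 RPKM in the SET-32-intact pair, with and without HRDE-1, and 4.04 and 63.04 RPKM in the set-32-lost pair (log2 change 3.10 ± 0.37 SE, limma adjusted p = 0.000115). Like the region on chromosome IV, of the 2 libraries without HRDE-1 the one with set-32 lost was higher. The same order was seen on chromosome V from 18118001 to 18125000, again without a GRTS bin, at 5.76 and 26.7 RPKM in the SET-32-intact pair and 8.48 and 90.2 RPKM in the other (log2 change 2.45 ± 0.42 SE, smallest limma adjusted p 0.000117). Without the intensity trend its adjusted p was 0.0505.

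Chromosome IV from 4123001 to 4136000 rose almost evenly in both pairs. It held 9 GRTS bins over 13 kb and went from 9.73 to 94.1 RPKM with SET-32 intact and from 11.4 to 103 RPKM with set-32 lost (log2 change 3.07 ± 0.26 SE, smallest limma adjusted p 7.47e-07). The pair differences were 3.16 and 2.98 on the log2 scale. Chromosome I from 13852001 to 13855000, with no mark, was as even, at 12.03 to 70.1 RPKM and 12.7 to 74.2 RPKM (log2 change 2.51 ± 0.27 SE). Chromosome V from 20295001 to 20307000, 12 kb long with 4 GRTS bins, went from 5.28 to 46.6 RPKM and from 6.60 to 39.2 RPKM (log2 change 2.50 ± 0.31 SE, smallest limma adjusted p 7.47e-07).

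Other named regions rose more with SET-32 intact. Chromosome V, 5754001 to 5755000, went from 4.68 to 75.4 RPKM in that pair and from 8.49 to 38.99 RPKM in the other. Chromosome IV, 527001 to 529000, went from 8.10 to 87.7 RPKM and from 13.7 to 50.02 RPKM, its starting level being above the 2.98 RPKM of N2 in both. In 11 of the 15 regions with the largest rise the difference was larger in the SET-32-intact pair, and the part of evenness in this was not tested. A GRTS bin was held by 12 of the 15. The remaining ones were III 13239001 to 13243000, V 17568001 to 17575000, II 2148001 to 2164000, I 226001 to 227000, IV 14415001 to 14417000, II 10935001 to 10942000 and V 6590001 to 6591000, with log2 changes of 2.45 to 2.86. For III 13239001 and IV 14415001 the smallest adjusted p without the intensity trend was 0.0751 and 0.0516.

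Of the 5 longest regions all but 1 lay on chromosome V. From 8825001 to 8847000 Pol II went from 5.30 to 55.1 RPKM with SET-32 intact and from 6.36 to 35.2 RPKM with set-32 lost. From 8868001 to 8889000 it went from 5.33 to 54.6 RPKM and from 6.40 to 35.7 RPKM. The values of the 2 stretches were nearly equal in each of the 4 libraries, and only 32.4% and 16.1% of their values between 10 and 60 RPKM came to whole reads (within 0.1), compared with 81.4% in other bins. Reads may therefore be shared between them, and their separate changes are uncertain. Chromosome V from 5180001 to 5201000, with 18 GRTS bins, went from 7.01 to 35.5 RPKM and from 7.37 to 39.5 RPKM (log2 change 2.14 ± 0.29 SE). Chromosome V from 18438001 to 18459000, with 4 GRTS bins, went from 4.64 to 41.9 RPKM and from 6.24 to 32.6 RPKM, and II 2148001 to 2164000, the remaining one of the 5 longest, from 4.65 to 49.7 RPKM and from 8.23 to 37.1 RPKM.

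**Figure D1:**
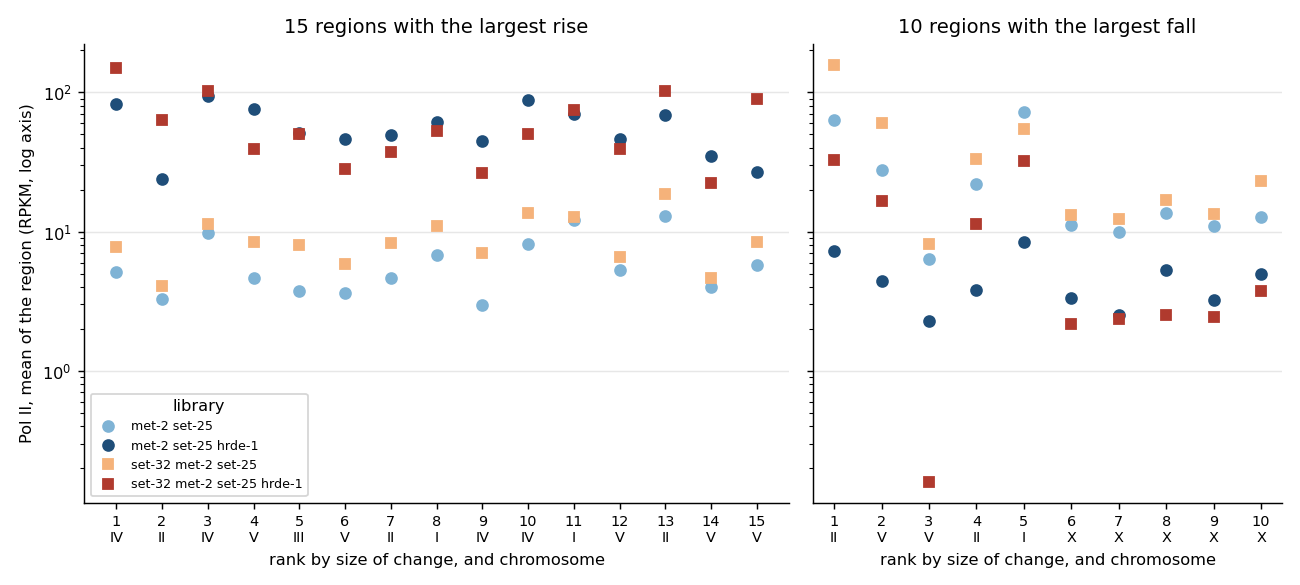
Pol II (mean RPKM of a region's called bins, log axis) in the 4 met-2 set-25 libraries, for the 15 regions with the largest rise and the 10 with the largest fall on hrde-1 loss, ordered by size of change, with the chromosome below each rank. Among the higher regions both hrde-1 mutants (dark symbols) lie above both other libraries; the lower regions of X read 5.32 RPKM or less in both hrde-1 mutants.

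Bins marked GRTS were the clearest group. Of 191, 151 rose (79.1%) and 0 fell, against 0.428% and 0.0788% of all bins. No source used here says how the mark was set. Such libraries may have been used to set it, so this count is not independent evidence of a direction. The count was 64 without the intensity trend, and 98 and 86 without the libraries with and without HRDE-1 of the SET-32-intact pair. The median GRTS bin went from 5.66 to 42.1 RPKM in the SET-32-intact pair and from 7.84 to 32.05 RPKM in the set-32-lost pair. The difference was positive in 190 of 191 bins with SET-32 intact and in 188 with set-32 lost, and the median over bins was 2.15 (all bins -0.11). With 2 libraries against 2, an exact permutation test of such a median has 6 assignments and cannot go below p = 0.333, so none is given.

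Ranks within a library do not depend on its scaling, and they placed the GRTS bins as ordinary bins before hrde-1 loss and among the most occupied after it. The median GRTS bin stood at percentile 47.4 of all bins with HRDE-1 and 97.2 without it in the SET-32-intact pair, and at 57.6 and 97.5 in the set-32-lost pair. In the top 5% of bins there were 0 GRTS bins in either library with HRDE-1, and 118 and 121 in those without it. In hrde-1 and set-32 hrde-1, where MET-2 and SET-25 are present, there were 97 and 136, and 0 in N2 and set-32.

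GRTS bins short of the threshold, 40 in all, mostly had higher values as well. In 39 of them the change was positive, with a median of 1.03 and a range of -0.46 to 1.68 on the log2 scale. Their median was 5.18 and 16.6 RPKM in the SET-32-intact pair and 7.96 and 13.7 RPKM in the other. Of the 40, 31 passed with MET-2 and SET-25 intact, where 0.654% of all bins rose. The only negative bin, V 16102001 to 16103000, went from 15.3 to 7.27 RPKM in the SET-32-intact pair and from 15.9 to 16.6 RPKM in the set-32-lost pair.

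Bins marked GRH, a term used in the field for heterochromatin that depends on germline nuclear RNAi, changed less and were already occupied beforehand. Of 215, 55 rose (25.6%) and 0 fell, against 0.428% and 0.0788% of all bins. Of these 55, 24 also carry the GRTS mark. The median GRH bin read 9.49 and 25.03 RPKM in the SET-32-intact pair, and 12.9 and 18.0 RPKM in the set-32-lost pair. The 25 bins with both marks had a median change of 2.45, and the 190 GRH bins without the GRTS mark one of 0.65, of which 31 rose. In the pairs the median GRH difference was 1.19 and 0.36, so its size rested mostly on the SET-32-intact pair.

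Bins that the authors marked misanotated (spelled as in the table) went down in 1 pair. Of 502 tested, 5 rose (0.996%, all bins 0.428%) and 3 fell (0.598%, all bins 0.0788%). Their median was 22.97 and 13.4 RPKM in the SET-32-intact pair and 31.9 and 32.7 RPKM in the other, at median differences of -0.71 and 0.06 (all bins -0.18 and -0.015). The level was highest in the 2 most even libraries, and the part of evenness in it was not tested.

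Around GRTS bins the rise fell off within a few kilobases. At 1 kb from the nearest GRTS bin 71 of 174 bins rose and the median was 16.7 RPKM with SET-32 intact and 16.6 RPKM with set-32 lost when HRDE-1 was gone, against 5.62 and 6.93 RPKM with HRDE-1. At 3 kb 11 of 128 bins rose, and at 5 kb 3 of 122 (2.46%). Beyond 50 kb the share was 0.135%, where the medians of the 4 libraries were 4.55 to 7.15 RPKM. Of the 429 higher bins, 151 were GRTS bins, 114 lay within 5 kb of one and 164 lay farther away (38.2%), 15 of these with the GRH mark. The 164 had a median change of 1.49, and 83 of them also passed with MET-2 and SET-25 intact, where 0.654% of all bins rose.

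**Figure D2:**
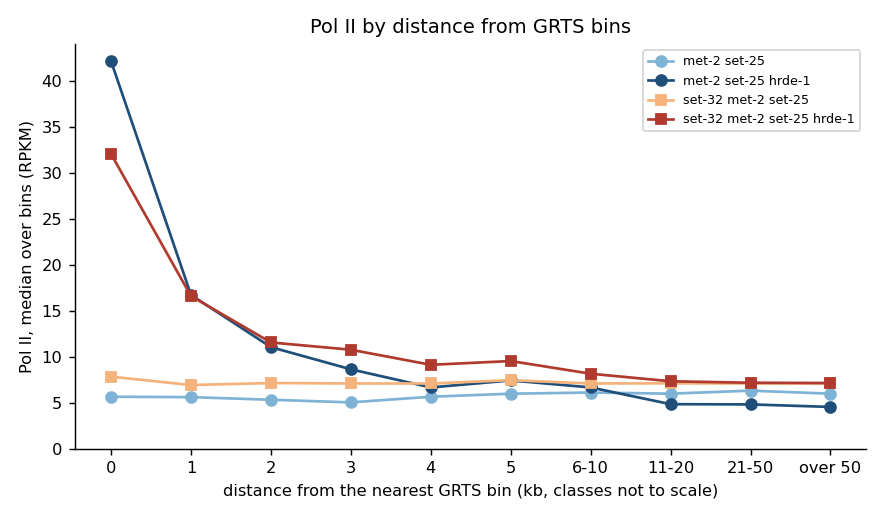
Median Pol II (RPKM) of all tested bins in classes of distance from the nearest GRTS bin (kb), 1 line per met-2 set-25 library. Both hrde-1 mutants peak at the GRTS bins, at 42.1 and 32.05 RPKM, and come close to the other libraries within a few kilobases, while the lines of the libraries with hrde-1 intact stay flat.

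The rise was also read in each pair by itself, since the pairs share no library. Both columns of the SET-32-intact pair carry the same prefix in their names, while those of the set-32-lost pair carry different ones, so that prefix and hrde-1 cannot be told apart there; what the prefix stands for is not labelled. By a rule of size, which asked for a log2 difference of 1 or more with the higher library at 10 RPKM or more, 1582 bins were higher with SET-32 intact (1.58% of bins) and 749 with set-32 lost (0.747%). In common were 402, or 25.4% of the former and 53.7% of the latter, and only 7 of the 1582 were past the rule in the opposite direction. Bins of the SET-32-intact list had a median difference of 0.46 in the other pair, positive in 76.9%, where 47.9% of all bins were positive. Bins of the set-32 list had a median difference of 1.22 in the SET-32-intact pair, positive in 82.2% (37.3% of all bins).

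Fewer of the falls were shared. Past the same rule 1738 bins were lower with SET-32 intact (1.73%) and 585 with set-32 lost (0.584%), and 80 were in common, or 4.6% and 13.7% of the lists. The SET-32-intact list had a median of -0.12 in the other pair, negative in 59.7% (52.1% of all bins). The set-32-lost list had a median of -0.48 in the SET-32-intact pair, negative in 77.3% (62.6% of all bins). Of the 80 shared bins 31 lie on X.

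**Figure D3:**
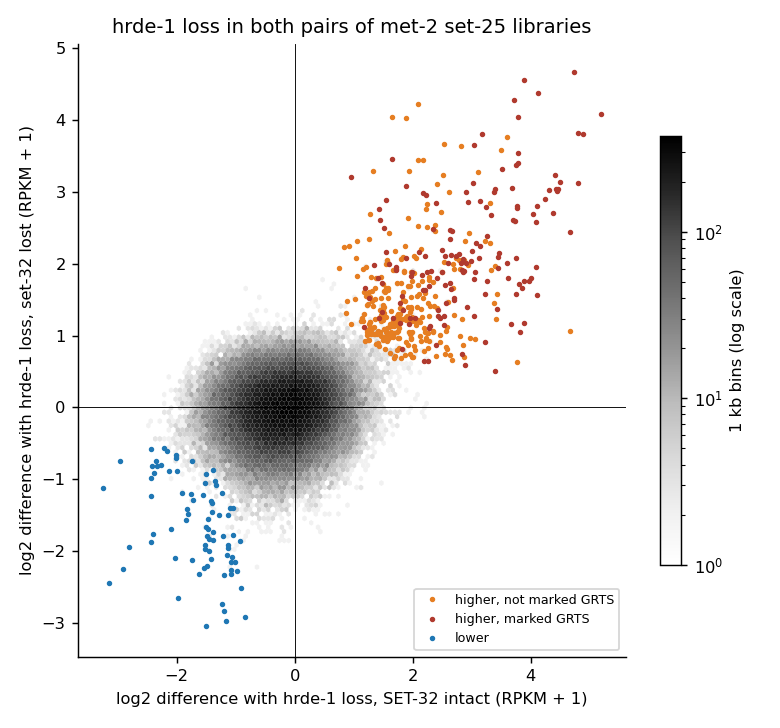
Difference in Pol II on hrde-1 loss (log2 of RPKM + 1) in the SET-32-intact pair (horizontal) and in the set-32-lost pair (vertical), for 100238 bins of 1 kb; grey shows the number of bins on a log scale, and coloured points are the bins that passed the test over both pairs. The higher bins, 151 of them marked GRTS, lie above 0 in both pairs, some of them by little in the set-32-lost pair, and the 79 lower bins lie below 0 in both, as a call over both pairs tends to require.

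Chromosomes differed in how much they took part. Chromosome V held 175 of the higher bins (0.837% of its bins), II 89 (0.582%), I 65 (0.432%), IV 71 (0.406%) and III 29 (0.210%). On X 0 of 17708 bins rose, and X holds 0 GRTS bins. Lower bins numbered 35 on X (0.198%), 19 on V, 8 each on I and IV, 7 on II and 2 on III. X took 12.1% of the signal with HRDE-1 and 9.96% without it in the SET-32-intact pair, and 14.2% and 12.9% in the set-32-lost pair.

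On X the falls were concentrated at the left end, where 32 of the 35 lower bins lie within the first 200 kb (a limit chosen after the values were seen). Over these 198 tested bins the median went from 6.82 to 3.59 RPKM in the SET-32-intact pair and from 9.79 to 2.60 RPKM in the set-32-lost pair. Both libraries without HRDE-1 were thus below their partners, at median differences of -0.66 and -1.57, while the rest of X moved by -0.19 over both pairs. The rest of X had medians of 4.66 and 3.33 RPKM with and without HRDE-1 in the SET-32-intact pair, and 6.36 and 6.20 RPKM in the other. Without HRDE-1 the left end was thus near the rest of X in the former. In the latter it lay under it, and under that library's 10th percentile over all bins (4.24 RPKM). What lies behind this was not tested. Lower bins of X numbered 35 to 45 when 1 of the 4 libraries was left out, 135 to 141 when 1 of the other 4 was, 124 with the 4 libraries alone and 0 without the intensity trend. With MET-2 and SET-25 intact it read 9.34 RPKM in N2, 3.95 RPKM in hrde-1, 9.995 RPKM in set-32 and, for set-32 hrde-1, 9.28 RPKM. So 3 of the 4 hrde-1 mutants of the series were well below their partners there and set-32 hrde-1 was not.

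The named falls on X ran from 186001 to 199000, 48001 to 52000, 151001 to 161000, 181001 to 184000 and 6001 to 7000, with log2 changes of -1.77 to -1.84. The longest, 186001 to 199000, went from 11.1 to 3.33 RPKM with SET-32 intact and from 13.3 to 2.18 RPKM with set-32 lost (log2 change -1.84 ± 0.34 SE, smallest limma adjusted p 0.000754). From 151001 to 161000 Pol II went from 13.6 to 5.32 RPKM and from 16.9 to 2.53 RPKM (log2 change -1.80 ± 0.33 SE). The fall was larger in the set-32-lost pair in all 5 of these regions. On the SET-32-intact pair alone the log2 changes were smaller in all 5, at -1.47, -1.65, -1.19, -1.50 and -1.20 in the order listed above. Left to 1 pair, a fit holds no measure of spread among met-2 set-25 libraries, so no p is given for it.

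The 79 lower bins formed 49 regions, 37 of them single bins. Of the 49, 15 lay on X and 34 on autosomes, and 0 held a GRTS or GRH bin. These marks cover 191 and 215 of 100257 bins, so few or none would be met among 79 bins by their share alone. On the autosomes 44 bins fell, many from high levels but some, such as V 7157001 to 7158000, from near the median of all bins. Their median level went from 27.3 to 5.96 RPKM in the SET-32-intact pair and from 37.4 to 13.8 RPKM in the set-32-lost pair, and with MET-2 and SET-25 intact their median change was 0.12, with 17 of 44 negative. The largest fall was II 11758001 to 11761000, from 63.3 to 7.27 RPKM and from 157.7 to 32.7 RPKM (log2 change -2.58 ± 0.47 SE, smallest limma adjusted p 0.00574). It read 44.4 RPKM in N2 but 6.20 RPKM in set-32, so low values there were not limited to hrde-1 mutants. V 9088001 to 9090000 fell by 2.12 on the log2 scale, from 27.8 to 4.395 RPKM and from 60.8 to 16.5 RPKM, and set-32 was low there too, at 3.29 RPKM. At II 4750001 to 4752000 Pol II went from 22.0 to 3.79 RPKM and from 33.1 to 11.4 RPKM, and the 3 libraries other than N2 with MET-2 and SET-25 intact read 9.64 to 11.7 RPKM.

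Single bins made up the rest of the named falls. I 13614001 to 13615000 went from 71.8 to 8.39 RPKM in the SET-32-intact pair and from 54.8 to 32.1 RPKM in the set-32-lost pair, where the difference was -0.75 against -2.95. V 7157001 to 7158000 went from 6.32 to 2.27 RPKM and from 8.17 to 0.16 RPKM, the last value being under 1 read. Of the 10 named falls, 6 passed after quantile normalization and 0 without the intensity trend. All 19 named rises passed after quantile normalization and 16 without the intensity trend.

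The hrde-1 effect in this background was set beside the effect in worms with MET-2 and SET-25 intact, where 656 bins rose (0.654%) and 8 fell (0.00798%) in the same fit. The backgrounds share no library, though they share the estimate of the spread. In this other background N2 and hrde-1 carry different column prefixes, so that prefix and hrde-1 cannot be told apart in that pair, while set-32 and set-32 hrde-1 share theirs. Of the 429 bins that rose in met-2 set-25 mutants, 336 rose in the other background as well, which is 78.3% of the former and 51.2% of the latter. The 93 bins called only in met-2 set-25 mutants had a median change of 1.49 here and 0.62 there. The 320 called only with MET-2 and SET-25 intact had a median of 0.82 here and 1.64 there, and 311 of them were positive here.

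No bin passed the test of the difference itself. By limma 0 of 100238 bins differed between the backgrounds (0%), with a smallest adjusted p of 0.114, while 5435 had an unadjusted p under 0.05. When 1 library was left out the count ranged up to 32 bins with a larger and 348 with a smaller effect in met-2 set-25 mutants. Leaving out N2 gave 19 and 348, hrde-1 16 and 307, set-32 32 and 38, and set-32 hrde-1 32 and 39. In the set-32-lost pair it was 20 and 64 without the library with HRDE-1 and 22 and 68 without the other. It was 0 without either library of the SET-32-intact pair. Leaving out a library rests the effect of its background on 1 pair, so these counts belong to different contrasts. A lack of calls does not show that the effects are equal.

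At GRTS bins the pairs split by set-32 status. In pairs with SET-32 intact, the median GRTS difference was 2.53 in met-2 set-25 mutants and 2.47 in N2 against hrde-1, a pair with different prefixes. With set-32 lost it was 1.81 in met-2 set-25 mutants, again a pair with different prefixes, and 3.49 otherwise. Over both pairs the median was 2.15 against 2.97, and the difference was negative in 165 of 191 bins (median -0.73, all bins -0.11). Of all 100238 bins tested it was negative in 59593. The 4 libraries behind the second contrast differed widely in evenness, with a 90th percentile over the 10th of 3.72 and 4.31 against 24.96 (set-32) and 14.5 (set-32 hrde-1), and the part of evenness in this contrast was not tested. GRH bins had medians of 0.72 in met-2 set-25 mutants and 0.68 otherwise.

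Among the 147 higher regions, 103 held a bin that passed with MET-2 and SET-25 intact, where 0.654% of all bins rose, and 44 did not. A GRTS bin was held by 1 of the 44, against 52 of all 147 higher regions. With MET-2 and SET-25 intact 178 of the 191 GRTS bins passed, so few could be met among regions that did not. Of the 44, 12 were among the regions nearly equal to another, and counted once per group 36 remain. The region with the largest change among the 44, chosen after its values were seen, was V 20501001 to 20506000. It went from 16.5 to 63.7 RPKM in the SET-32-intact pair and from 17.9 to 135.3 RPKM in the set-32-lost pair. In N2, hrde-1, set-32 and set-32 hrde-1 it read 8.87, 9.78, 8.92 and 20.4 RPKM. The change was 2.35 ± 0.29 SE here and 0.66 there, and the difference of 1.69 did not pass (smallest limma adjusted p 0.445, unadjusted 0.000230). II 9802001 to 9803000 passed on the SET-32-intact pair (differences of 3.77 and 0.63), with 48.8 RPKM in its library without HRDE-1 and 2.66 to 7.18 RPKM in the other 7 libraries.

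The bin with the smallest p for the difference, also named after its value was seen, was IV 527001 to 528000, where the effect was smaller in met-2 set-25 mutants. Its hrde-1 mutants reached much the same level in all backgrounds, at 64.4 and 73.7 RPKM in met-2 set-25 mutants (SET-32 intact, then lost) and 70.3 and 74.3 RPKM in hrde-1 and set-32 hrde-1. The libraries with HRDE-1 did not, at 10.7 and 19.2 RPKM in met-2 set-25 mutants against 2.70 and 1.32 RPKM in N2 and set-32. At II 13248001 to 13249000 the libraries with HRDE-1 were likewise higher in met-2 set-25 mutants, with 13.0 and 13.7 RPKM against 4.59 and 2.64 RPKM. There the hrde-1 mutants did not reach one level, at 65.5 and 53.2 RPKM in met-2 set-25 mutants against 83.8 and 99.2 RPKM (difference of changes -2.29, limma adjusted p = 0.157). Not all bins with a small p were of this kind. The next smallest after IV 527001 was at IV 2755001 to 2756000 (limma adjusted p = 0.114), which carried no mark. It fell here (log2 change -2.18) and rose there (1.19), as did I 14686001 to 14687000 (-1.71 and 1.04).

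**Figure D4:**
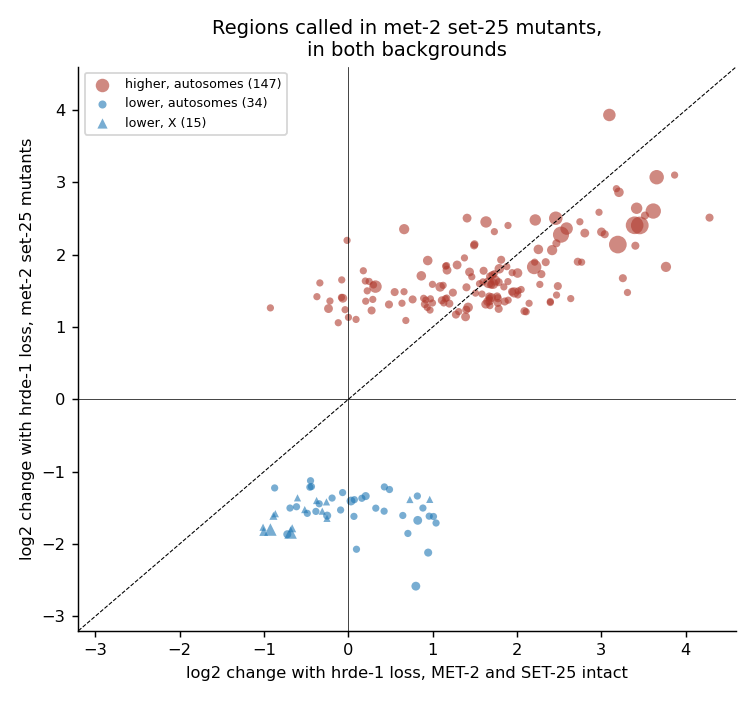
Change in Pol II on hrde-1 loss (log2 of RPKM + 1) with MET-2 and SET-25 intact (horizontal) and in met-2 set-25 mutants (vertical), for the 147 higher and 49 lower regions called in met-2 set-25 mutants; larger symbols hold more bins, triangles are regions of X, and the dashed line marks equal change. Higher regions spread along the line with 136 of 147 also positive in the other background, while 27 of the 49 lower regions share their sign there; regions were chosen on the vertical axis.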

How the data were processed

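The authors' table of RPKM values (read density per bin length and library size) in 100257 bins of 1 kb was used as deposited; the submitters' processing notes name Bowtie 0.12.7 as aligner. The sources used here say nothing of reads with several positions, of input correction or of filters. Columns were matched to samples by label; 35 of 43 library columns were not used, and the 3 H3K9me3 samples were not analysed here. GRTS, GRH and misanotated are yes-or-no marks of the authors, taken as deposited. Depth was estimated from the step between low values: 82.9 to 84.4% of values up to 8 RPKM came within 0.1 of whole reads, too few to run a count test.

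A bin was tested when its mean reached 2 RPKM over the 4 met-2 set-25 libraries (19 did not). The test was limma 3.58.1 (R 4.3.3) on log2(RPKM + 1), moderated with an intensity trend, two-sided, Benjamini-Hochberg adjusted over all bins. The model held a level, a set-32 term and an hrde-1 effect for each met-2 set-25 status (6 coefficients over 8 libraries, 2 residual degrees of freedom). Moderation added 16.28 prior degrees of freedom, borrowed from the spread over all bins. In this model the hrde-1 effect is the mean of the 2 pair differences. With 1 library per genotype, the error comes from how far pair differences depart from each other. The number of cultures behind it is not labelled. When 1 of the 4 met-2 set-25 libraries is left out, the error comes only from the libraries with MET-2 and SET-25 intact. Calls in such fits hold no measure of spread among met-2 set-25 libraries. The p of a region is the smallest of its bins, and its level, change and SE average its called bins. Named were the 15 largest rises, 10 largest falls, 5 longest rises, and regions past the threshold for the difference between backgrounds, of which there were 0. Column prefixes differ within the pair that lacks set-32, where prefix and hrde-1 cannot be told apart; both libraries of the SET-32-intact pair share theirs. N2 and hrde-1 differ in prefix too. The fit was run on simulated data with independent bins and the fit's own spread. This checks the fitting code and cannot show how many calls in these data are false. The comparison, its lists and tests were chosen with earlier results of these data known. Tables were handled with pandas 2.3.3 and numpy 2.4.6 under Python 3.11.15; figures were drawn with matplotlib 3.10.9.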

Additional observations from a re-analysis of the deposited data

How the results depend on the processing

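Named regions were called on these libraries, and their bins moved the same way in both pairs. Their direction was thus nearly fixed in advance, and under every alternative run for them it held. The counts did not: against 429 higher and 79 lower bins, moderation without the trend gave 98 and 0, the 4 libraries alone 687 and 382, and a mean of at least 5 RPKM 23 lower bins. Leaving out 1 of the 4 libraries, so that 1 pair alone carries the effect, gave 159 to 524 higher and 43 to 296 lower bins. In the SET-32-intact pair it was 179 and 46 without the library with HRDE-1, and 159 and 43 without the other. In the set-32-lost pair it was 524 and 284 without the library with HRDE-1, and 518 and 296 without the other. Of the 79 lower bins 22 to 28 were called again in these 4 fits, and of the 429 higher bins 141 to 322. The fits without a library of the set-32-lost pair keep the libraries that share a prefix. In all 4 fits the spread came only from the libraries with MET-2 and SET-25 intact. They hold no measure of spread among met-2 set-25 libraries, and their counts are not tests of it. Leaving out 1 of the other 4 libraries, added after the data were seen, gave 702 to 723 higher and 398 to 408 lower bins, with all 429 and 79 among them. The changes in met-2 set-25 mutants were the same in these fits, and what differed was the estimated spread. It then came from the met-2 set-25 libraries alone, as in the fit on those 4. Finding all 429 and 79 again is therefore not separate support. Its prior degrees of freedom were 16.28 in the main fit, 110.2 to 145.2 without 1 of the other 4 libraries and 87.4 with the 4 libraries alone. The larger counts thus do not come from larger changes, and why the prior degrees of freedom differ was not tested. For the difference between backgrounds, centring on library medians gave 4 bins with a smaller effect, a shared set-32 term 1, and leaving out a library 0 to 32 with a larger and 0 to 348 with a smaller effect. The median of misanotated bins ran from -0.71 to 0.059 when 1 of the 4 libraries was left out, turning positive without either library of the SET-32-intact pair (main value -0.33). Bins lower in both pairs past the size rule numbered 39 at a minimum of 20 RPKM. The labels give no replicate numbers to pair by beyond the pairing by set-32 status, which the model holds; without a set-32 term 402 bins rose and 54 fell. At 1 kb and 3.005 to 6.6 M reads, no rise under 2-fold passed.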
